A study of Mus musculus with 12 samples.

Results

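The Bex genes encode a family of small, mostly X-linked proteins, and 4 of them, Bex1, Bex2, Bex4 and Bex6, were followed here across 12 mouse arrays to ask whether the family follows the loss of Bex1 in lymphoma and leukaemic stem cells. Each of the 4 genes had 1 probe set that carried a single symbol, so the members were 4 of 45037 probe sets and 4 of 18193 named genes. The members were chosen by measured values of these arrays, since Bex1 was very low in T lymphoma against DP thymocytes and in LSC against HSC. The values of Bex1, Bex2, Bex4 and Bex6 in those comparisons are therefore given as a description with no test.

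The arrays profile a mouse model of disease driven by the ZMYM2-FGFR1 fusion kinase. ZNF112 (n = 1) is named in the labels only as an unsorted cell line. T lymphoma (n = 4) came from ZMYM2-FGFR1 mice of the third serial transplant: 3 tumours were unsorted, with over 90% of cells GFP+ Thy1+ and CD4+CD8+, and 1 was sorted for GFP+ Thy1+ CD4+CD8+ cells. DP thymocytes (n = 3) were Thy1+ CD4+CD8+ double-positive cells sorted from thymuses of normal Balb/c mice, with 3 mice pooled per sample. LSC (leukaemia stem cells, n = 2) were sorted GFP+ cells with the surface phenotype Lin-Sca-1+c-kit+, taken from marrow or spleen of 2 to 3 ZMYM2-FGFR1 mice per sample. HSC (haematopoietic stem cells, n = 2) had the same surface phenotype and came from marrow of normal Balb/c mice, with 5 female mice pooled per sample. GFP was the mark by which the labels define the disease cells, and the labels give no GFP for the normal samples. Ages were not given in the sources used here.

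BEX stands for brain expressed X-linked. The proteins are short, largely unstructured in solution and abundant in neurons, and they act as adaptors: mouse Bex3, also called NADE, binds the p75 neurotrophin receptor, human BEX2 binds the LMO2 transcription complex, and human BEX1 and BEX2 have been studied as tumour suppressors in leukaemia and glioma. Together with the TCEAL genes, which are related to the transcription elongation factor A gene, and the GPRASP and ARMCX genes, the Bex genes form an X-linked cluster in which many members share conserved DNA upstream of their coding exons. In the mouse, Bex6 is an exception that lies on chromosome 16.

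The names of these genes have crossed in the literature. RefSeq lists Bex4 and Rex3 as older names of the present Bex1, and Bex1 as an older name of the present Bex2, so members were matched by Entrez identifier. All values below are probe set intensities on a linear scale, or their log2. The levels of different probe sets are not comparable per length or per molecule, and each gene is set against itself. The arrays fell into a T cell side (ZNF112, T lymphoma and DP thymocytes; 8 arrays, medians 99.2 to 109) and a stem cell side (LSC and HSC; 4 arrays, medians 44.2 to 46.0), so an intensity on one side is not directly comparable with one on the other. The percentile of a probe set among the 45037 of its own array is given where levels are set across the sides.

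Arrays of a group differed in how alike they were. The mean Pearson correlation between arrays of a group, over 27957 tested probe sets, was 0.921 for T lymphoma, 0.994 for DP thymocytes, 0.797 for LSC and 0.946 for HSC. For LSC 2 the correlation was 0.865 to 0.887 to each lymphoma, 0.806 to 0.813 to each HSC array and 0.797 to LSC 1. Its Cd34 intensity was 34.2, against 1584 in LSC 1, while Kit, the surface receptor used in the sort, stood at 5061 and 2037 in LSC and 2055 and 2762 in HSC. In ZNF112, Cd4 stood at 118 and Cd8a at 365. The summed intensity of all 10 listed DP thymocyte markers was 55770 in ZNF112, beside 56500 to 77580 in T lymphoma and 122500 to 137400 in DP thymocytes. The actin 3'/5' ratio, a measure of RNA integrity and amplification length, was 2.60 in ZNF112, 2.44 to 3.69 in T lymphoma, 2.18 to 2.23 in DP thymocytes, 9.82 to 13.6 in LSC and 3.91 to 5.79 in HSC, and its part in the results was not tested. In arrays of bulk RNA, fewer cells of a type and less RNA per cell cannot be told apart.

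Bex1 was abundant in both normal populations and low in the disease samples. Its intensity was 43.6, 36.5 and 56.9 in the unsorted T lymphomas and 44.9 in the sorted one, 39.7 in ZNF112, and 3160, 2955 and 3274 in DP thymocytes. It was 79.5 and 36.5 in LSC, against 2540 and 3603 in HSC. In both pairs each disease array lay far below each normal array, and none of the groups overlapped. On the log2 scale Bex1 averaged 5.49 ± 0.26 in T lymphoma (SD, n = 4) and 11.61 ± 0.08 in DP thymocytes (SD, n = 3), a difference of -6.12 (SE 0.28), or 69.7-fold lower. It averaged 5.75 ± 0.79 in LSC and 11.56 ± 0.36 in HSC (SD, n = 2 each), a difference of -5.81 (SE 0.36), or 56.1-fold lower. All disease arrays were below 80.2, the level that a probe set had to pass in at least 2 arrays to be tested (the filter level). The size of these folds, and of those for Bex4 and Bex6, is thus limited by how low a dim probe set can read. The filter level is the median of all values, below the median of each T cell side array and above that of each stem cell side array. A value under it is therefore not equally dim on both sides: Bex1 in LSC 1 (79.5) lay at the 62.6 percentile of its array.

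The difference between individual arrays was small beside this gap. Relative to the mean of DP thymocytes, the lymphomas lay at -6.42 to -5.78 log2 units, the sorted tumour among them at -6.12, and ZNF112 lay at -6.30. LSC 1 stood at -5.25 and LSC 2 at -6.37 from the mean of HSC, so the array that resembled the lymphomas and the array that resembled HSC were both low. Among 27957 tested probe sets, the Bex1 difference was the 4th lowest in T lymphoma minus DP thymocytes and the 6th lowest in LSC minus HSC. A mean lower by 4 or more log2 units was found for 0.093% of tested probe sets in T lymphoma minus DP thymocytes and for 0.222% in LSC minus HSC. Bex1 was the 1 probe set that met both (0.00358%), which restates what drew attention to the gene.

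Within its array, the Bex1 probe set lay at the 21.0 percentile in ZNF112, at 18.7 to 33.5 in T lymphoma and at 93.2 to 93.9 in DP thymocytes. It lay at 44.6 to 62.6 in LSC and at 97.6 to 97.7 in HSC. By percentile HSC and DP thymocytes stood above the disease samples. ZNF112 lay inside the range of the lymphomas, and no order is read between LSC and the T cell side samples, since percentiles of dim probe sets differed between the sides. After centring each array on its median, Bex1 was 1.13 log2 units higher in HSC than in DP thymocytes.

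The DNA just upstream of the X-linked genes is shown because it forms pairs within the family. RefSeq promoter entries (build GRCm38.p6) were found for the 4 members and for Bex3. The 250 bases before the annotated start of Bex1 (chrX:136215514-136215763, minus strand) and of Bex4 (chrX:136138746-136138995, plus strand) share an unbroken identical run of 221 bases, printed in capitals, and align at 98.8% identity (237 of 240 columns).
Bex1: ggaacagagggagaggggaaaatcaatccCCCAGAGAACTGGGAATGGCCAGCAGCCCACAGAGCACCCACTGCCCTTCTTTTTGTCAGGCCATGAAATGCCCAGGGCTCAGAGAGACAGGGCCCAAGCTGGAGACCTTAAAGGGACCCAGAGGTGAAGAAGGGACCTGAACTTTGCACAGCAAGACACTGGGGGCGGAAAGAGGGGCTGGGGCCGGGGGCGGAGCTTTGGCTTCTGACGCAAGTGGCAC
Bex4: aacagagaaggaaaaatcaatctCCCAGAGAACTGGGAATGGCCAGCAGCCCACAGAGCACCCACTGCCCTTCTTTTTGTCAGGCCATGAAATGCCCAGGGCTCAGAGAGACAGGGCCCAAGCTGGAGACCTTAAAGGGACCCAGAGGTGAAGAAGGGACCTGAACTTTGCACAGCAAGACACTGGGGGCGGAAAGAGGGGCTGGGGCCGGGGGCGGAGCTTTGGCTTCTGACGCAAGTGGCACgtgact
Likewise the 250 bases before Bex2 (chrX:136068237-136068486, minus strand) and Bex3 (chrX:136270003-136270252, plus strand) share an identical run of 145 bases in capitals, with 99.3% identity over 149 columns.
Bex2: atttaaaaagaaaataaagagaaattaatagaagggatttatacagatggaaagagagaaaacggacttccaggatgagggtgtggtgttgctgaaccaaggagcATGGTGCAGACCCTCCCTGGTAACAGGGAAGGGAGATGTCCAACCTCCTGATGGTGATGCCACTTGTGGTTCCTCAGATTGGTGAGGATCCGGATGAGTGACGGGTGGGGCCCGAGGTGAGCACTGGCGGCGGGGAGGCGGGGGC
Bex3: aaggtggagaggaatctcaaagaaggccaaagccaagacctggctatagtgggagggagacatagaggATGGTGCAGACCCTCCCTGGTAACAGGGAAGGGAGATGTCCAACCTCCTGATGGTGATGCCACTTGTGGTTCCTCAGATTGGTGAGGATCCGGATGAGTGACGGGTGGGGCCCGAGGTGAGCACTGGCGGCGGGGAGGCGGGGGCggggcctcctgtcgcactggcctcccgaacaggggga
For every other pair among the 5 genes, the longest identical run was 8 to 9 bases. The sequences thus form a Bex1 and Bex4 pair and a Bex2 and Bex3 pair.

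Motifs were counted on both strands of a window from 250 bases before to 50 bases after each start, and none of the motifs searched contains another. The E-box CACGTG occurred once in the windows of Bex1, Bex4 and Bex3 and not in those of Bex2 and Bex6, and it was present in 7.15% of 32851 mouse promoter windows. The GC box GGGCGG occurred 2 times in Bex1 and in Bex4 and once in Bex2 and in Bex3 (35.7% of all windows), and Bex6 held none. TATAAA was found in Bex2 among the 5 windows (13.6% of all), and CCAAT in Bex2, Bex6 and Bex3 (37.4% of all). TGTGGT, the core of RUNX sites, was found in Bex2, Bex6 and Bex3 (16.8% of all), and GATAA, the core of GATA sites, in none of the 5 (25.4% of all). The window held 8 CG pairs in Bex1, 12 in Bex2, 9 in Bex4, 3 in Bex6 and 13 in Bex3, against a median of 7 over all windows. These matches describe letters in a window and not sites of binding.

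Bex2 lay near or below the middle of its array in every group and was lower in disease by about the same amount on both sides. Its intensity was 43.7, 31.4 and 38.1 in the unsorted T lymphomas, 33.6 in the sorted one, 38.6 in ZNF112, and 78.7, 81.7 and 80.4 in DP thymocytes. It was 27.8 and 23.9 in LSC, against 45.4 and 52.4 in HSC. Each disease array lay below each normal array of its side, yet all lay under the filter level except 2 of the DP arrays. On the log2 scale Bex2 averaged 5.19 ± 0.21 in T lymphoma and 6.33 ± 0.03 in DP thymocytes (SD, n = 4 and 3), a difference of -1.14 (SE 0.16). It averaged 4.69 ± 0.16 in LSC and 5.61 ± 0.15 in HSC (SD, n = 2 each), a difference of -0.92 (SE 0.22). These differences were 1616th and 4102nd from the lowest of 27957. A mean lower by 1 or more log2 units was found for 7.74% of tested probe sets in T lymphoma minus DP thymocytes and for 13.3% in LSC minus HSC. By percentile Bex2 lay at 19.9 in ZNF112, 12.3 to 25.7 in T lymphoma, 43.9 to 45.3 in DP thymocytes, 30.7 to 36.0 in LSC and 49.7 to 53.2 in HSC. Within each side the normal group stood above the disease samples, ZNF112 lay inside the range of the lymphomas, and no order is read across the sides.

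Bex4 was lower in LSC than in HSC, while on the T cell side it was dim throughout. Its intensity was 47.9 and 23.8 in LSC, against 290 and 595 in HSC. It was 56.9, 51.8 and 47.7 in the unsorted T lymphomas, 54.4 in the sorted one, 58.2 in ZNF112, and 60.7, 73.3 and 68.2 in DP thymocytes. The log2 mean was 5.08 ± 0.72 in LSC and 8.70 ± 0.73 in HSC (SD, n = 2 each), a difference of -3.62 (SE 0.38), or 12.3-fold lower. It was 5.72 ± 0.11 in T lymphoma and 6.07 ± 0.14 in DP thymocytes (SD, n = 4 and 3), a difference of -0.35 (SE 0.29). The differences were 101st and 8373rd from the lowest of 27957. The Bex1 probe set passed the filter level in DP thymocytes and HSC, and the Bex4 probe set in HSC. Bex4 was already below that level in DP thymocytes, so a fall as large as that of Bex1 could not have been measured there. This does not bear on a smaller fall, and the difference there was -0.35 (SE 0.29). Nothing is read from this about the 221 bases that Bex1 and Bex4 share upstream, and a link of sequence to expression was not tested. By percentile Bex4 lay at 35.1 in ZNF112, 27.6 to 34.6 in T lymphoma and 36.7 to 42.5 in DP thymocytes, and at 30.6 to 52.1 in LSC and 80.2 to 86.0 in HSC. HSC stood first, and no order is read among the other groups.

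Bex6 showed the same split as Bex4. Its intensity was 20.4 and 23.5 in LSC, against 220 and 681 in HSC. It was 21.6, 25 and 26.4 in the unsorted T lymphomas, 22.2 in the sorted one, 23.7 in ZNF112, and 30.5, 25.4 and 27.2 in DP thymocytes. Both LSC arrays lay below both HSC arrays, which were themselves 1.63 log2 units apart (1.03 for Bex4), and T lymphoma overlapped DP thymocytes. The log2 mean was 4.45 ± 0.14 in LSC and 8.60 ± 1.15 in HSC (SD, n = 2 each), a difference of -4.14 (SE 0.43), or 17.7-fold lower. It was 4.57 ± 0.14 in T lymphoma and 4.79 ± 0.13 in DP thymocytes (SD, n = 4 and 3), a difference of -0.22 (SE 0.33). The differences were 49th and 10696th from the lowest. By percentile Bex6 lay at 2.58 in ZNF112, 1.57 to 5.61 in T lymphoma, 4.55 to 10.8 in DP thymocytes, 24.5 to 30.2 in LSC and 76.3 to 87.4 in HSC. Percentiles of dim probe sets differed between the sides, and no order is read among the 4 groups other than HSC.

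Groups without overlap and lower in disease were found for Bex1, Bex2 and Bex4 in T lymphoma against DP thymocytes, where 22.5% of tested probe sets met the same criterion, and for all 4 members in LSC against HSC, where 19.9% did. Nothing is read from these counts, since Bex1 chose the family and the filter shaped the rest. Bex2 passed the filter only through 2 DP arrays, and Bex4 and Bex6 only through the 2 HSC arrays, so each was tested only because it was high in those normal arrays. Bex1 passed in 5 arrays, those of DP thymocytes and HSC. Bex4 and Bex6 were already below the filter level in DP thymocytes, so a fall like that of Bex1 could not have been measured for them in T lymphoma. After centring, HSC exceeded DP thymocytes by 0.46 log2 units for Bex2, 3.81 for Bex4 and 4.98 for Bex6.

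**Figure D1:**
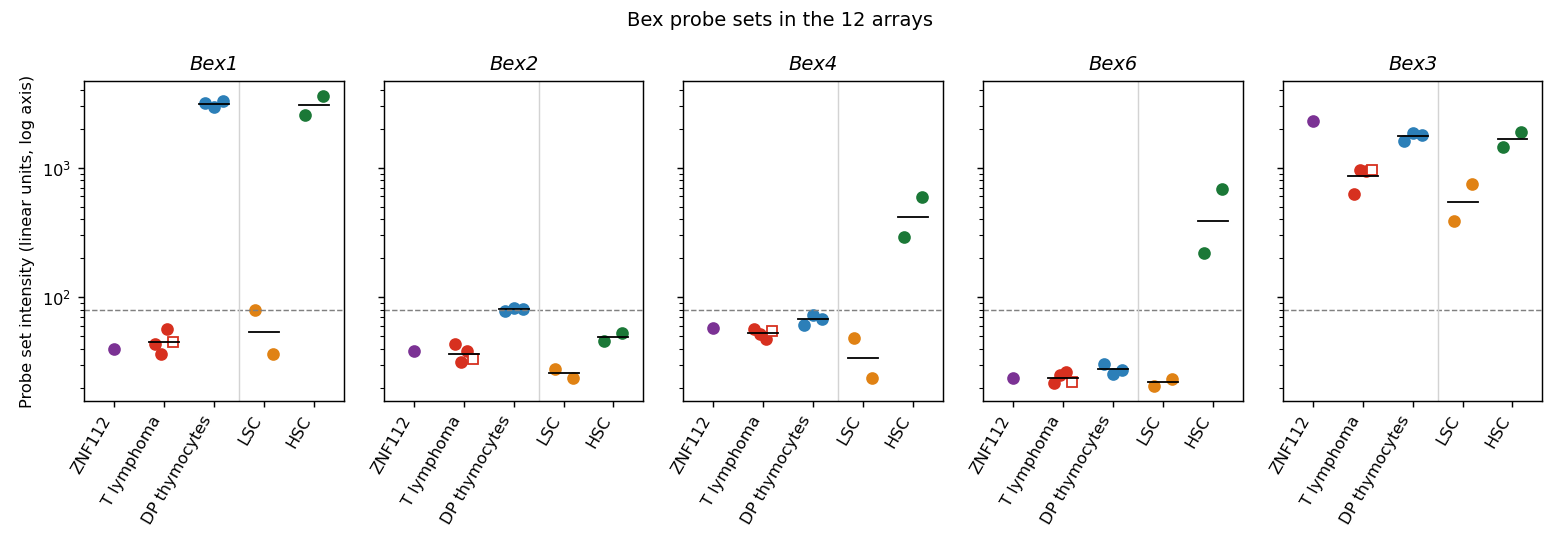
Intensity (linear units, log axis) of the probe sets of Bex1, Bex2, Bex4, Bex6 and Bex3 in each of the 12 arrays; points are arrays, the open square is the sorted lymphoma, black bars are means of log2 values, the dashed line is the filter level of 80.2, and the grey line parts the T cell side from the stem cell side. Bex1 is at 2540 or above in DP thymocytes and HSC and below 80 elsewhere, Bex4 and Bex6 pass the line in HSC alone, Bex2 stays at or below about the line, and Bex3 stays far above it.

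**Figure D2:**
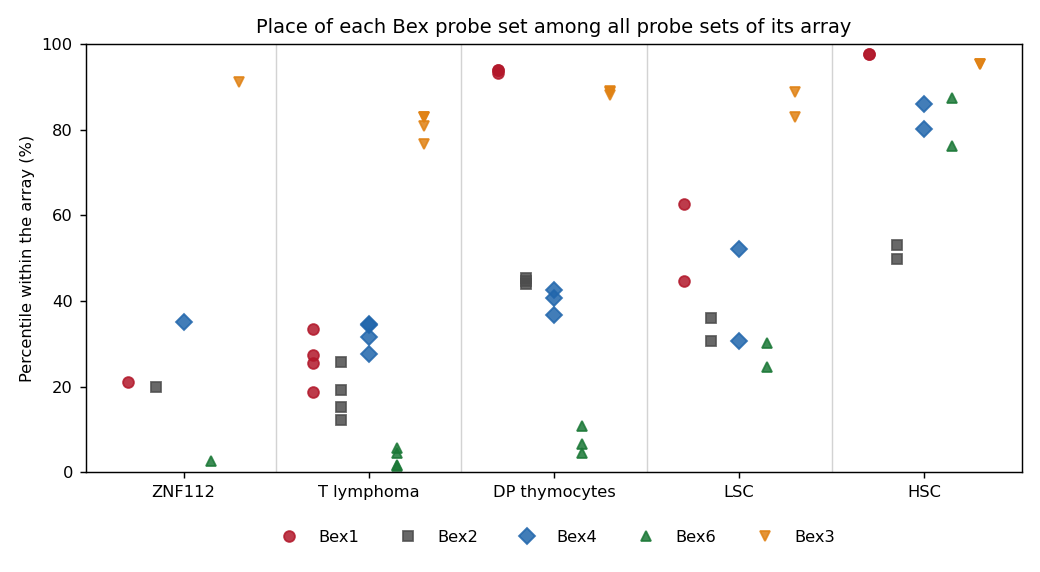
Percentile of each Bex probe set among the 45037 probe sets of its own array (vertical axis, %), by group, with 1 point per array. Bex1 lies at 93.2 to 97.7 in the normal groups and at 18.7 to 62.6 in the disease samples, and Bex4 and Bex6 lie at 76.3 to 87.4 in HSC.

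**Figure D3:**
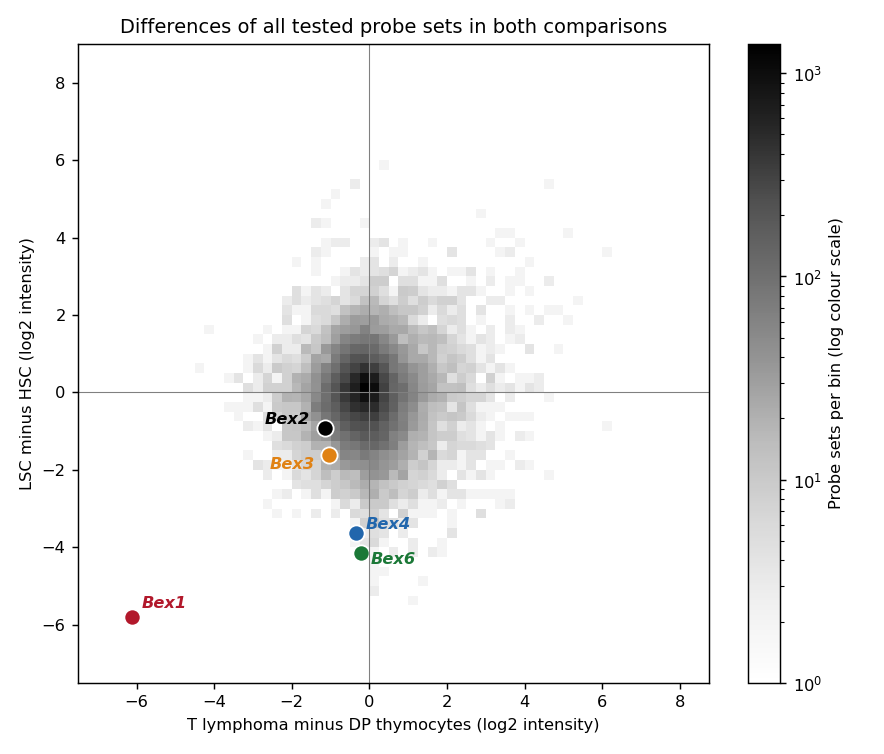
Difference of log2 means in T lymphoma minus DP thymocytes (horizontal axis) and LSC minus HSC (vertical axis) for 27957 tested probe sets, drawn as a grey density with a log colour scale, with the Bex probe sets as coloured points. Bex1 lies alone at -6.12 and -5.81, Bex4 and Bex6 lie low on the vertical axis near 0 on the horizontal one, and Bex2 and Bex3 lie at the lower left of the main cloud.

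The ZNF112 array had no part in choosing the family and was set against the lymphomas, which had. All 4 members were below the filter level in ZNF112 and in every lymphoma, so there was little room for a further fall. Their differences bear mainly on a rise in ZNF112 and are given as a description with no test. Over all tested probe sets, limma called 0.74% in ZNF112 minus T lymphoma (207 at a Benjamini-Hochberg adjusted p under 0.05, 0.343% lower and 0.397% higher). For the lone ZNF112 array, the spread was taken from the other groups. Bex1 stood at -0.18 (95% interval -1.09 to 0.73), Bex2 at 0.08 (-0.46 to 0.63), Bex4 at 0.15 (-0.82 to 1.11) and Bex6 at -0.00 (-1.07 to 1.07). The upper ends of the intervals leave room for a rise of up to about 1 log2 unit.

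The sorted lymphoma and the 3 unsorted ones were among the values that chose the family, so their difference is a description with no test. Sorted minus unsorted, Bex1 differed by -0.00, Bex2 by -0.16, Bex4 by 0.07 and Bex6 by -0.13 log2 units, all among values below the filter level, and with 1 sorted array the tumour and the sort cannot be told apart. Across the 4 lymphomas the summed intensity of 10 macrophage markers ran between 3491 and 54730, against 1188 to 1352 in DP thymocytes, and that of 10 stromal and endothelial markers between 862 and 31400, against 891 to 1037 in DP thymocytes. The part of these cells in the Bex values was not tested.

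Bex3, the family gene outside the member list, fell in both disease populations and stayed above the filter level in all 12 arrays. Its intensity was 625, 960 and 943 in the unsorted T lymphomas and 953 in the sorted one, against 1616, 1861 and 1782 in DP thymocytes. It was 388 and 748 in LSC, against 1456 and 1897 in HSC. The groups did not overlap on either side. The difference was -1.03 (SE 0.26, limma adjusted p = 0.0432) in T lymphoma minus DP thymocytes, where 7.45% of tested probe sets were called (4.7% lower and 2.76% higher), and -1.62 (SE 0.34, adjusted p = 0.0196) in LSC minus HSC, where 8.48% were called (4.67% lower and 3.81% higher). The T lymphoma call was lost without a filter on low values (adjusted p = 0.0525), with an intensity trend (0.0524) and without any of 6 single arrays (0.0723 to 0.166), and the sorted tumour alone gave 0.55. The LSC call was lost without HSC 2 (0.0993) and kept without LSC 1 (-1.15, adjusted p = 0.039) and without LSC 2 (-2.10, adjusted p = 0.00329). With only the 4 stem cell arrays in the fit, limma called 0 probe sets in LSC minus HSC (2999 at an unadjusted p under 0.05), so every LSC call here rests on the spread shared with the T cell side. ZNF112 held 2294 of Bex3, above every lymphoma, at a difference of 1.42 (SE 0.38, adjusted p = 0.164; 0.0425 when only the arrays of the T cell side entered the fit). The difference between the LSC and the lymphoma effects was -0.59 (SE 0.43, adjusted p = 0.422).

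Of 8 listed BEX/TCEAL relatives, Bex3 included, 5 had a probe set with a single symbol and 4 were tested, of which 1 fell in T lymphoma and 2 fell in LSC. Their median difference was 0.01 in T lymphoma minus DP thymocytes, beside -0.08 over all tested probe sets, and -1.96 in LSC minus HSC, beside 0.02. Tceal1, known in human as a modulator of transcription, fell in LSC: it stood at 29.8 in both LSC arrays, against 112 and 192 in HSC (-2.30, SE 0.28, adjusted p = 0.00166). It passed the filter only through those 2 HSC arrays, as Bex4 and Bex6 did, and so was tested only because it was high there. In T lymphoma it was dim at 44.3 to 62.6, against 42.9 to 45.8 in DP thymocytes (0.20, adjusted p = 0.628). The effects differed by -2.50 (SE 0.35, adjusted p = 0.00421), where 7.97% of tested probe sets were called, but a gene this dim on the T cell side had little room for a fall there.

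Tceal8 stood at 179 and 89.8 in LSC, against 479 and 1389 in HSC (-2.68, adjusted p = 0.0609; -3.18 and 0.0471 without LSC 1), and at 95.8 in the sorted and 215 to 490 in the unsorted lymphomas, against 253 to 343 in DP thymocytes (-0.18, adjusted p = 0.895). Tceal9 stood at 513 and 2770 in LSC, against 2611 and 3151 in HSC (-1.27, adjusted p = 0.285; -2.48 and 0.00599 without LSC 2), and at 1866 to 3663 in T lymphoma, against 1967 to 2675 in DP thymocytes (0.19, adjusted p = 0.865). The LSC arrays were far apart for Tceal9, with LSC 2 inside the range of HSC. Tceal7 stayed below the filter level in all 12 arrays. In ZNF112 and in the sorted against the unsorted lymphomas, where limma called 0.376% of tested probe sets (0.322% lower and 0.0537% higher), 0 of the 4 relatives were called (1 and 1 at an unadjusted p under 0.05).

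Between the outermost X-linked family genes, RefSeq lists 64 other genes, of which 10 had a probe set with a single symbol here and 5 were tested. Both Gprasp genes, which encode sorting proteins of G protein-coupled receptors, fell on both sides. Gprasp1 stood at 330 to 535 in T lymphoma, against 1106 to 1189 in DP thymocytes (-1.39, SE 0.23, limma adjusted p = 0.00628), and at 152 and 97.2 in LSC, against 483 and 619 in HSC (-2.17, SE 0.30, adjusted p = 0.00308). Gprasp2 stood at 22.2 to 36.3 in T lymphoma, against 136 to 227 in DP thymocytes (-2.61, SE 0.23, adjusted p = 0.000215), and at 19.1 and 20.6 in LSC, against 118 and 121 in HSC (-2.59, SE 0.30, adjusted p = 0.00148). Gprasp2 was thus low in every disease array. It passed the filter only through the DP thymocyte and HSC arrays, and so was tested only because it was high there. Armcx5, Bhlhb9 and Tmsb15a were not called in either comparison, with Bhlhb9 at -0.67 and -0.99. In ZNF112, Gprasp1 stood at 546 and Gprasp2 at 56.0. None of the 5 neighbours was called by limma in ZNF112 or in the sorted lymphoma (2 and 0 at an unadjusted p under 0.05).

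**Figure D4:**
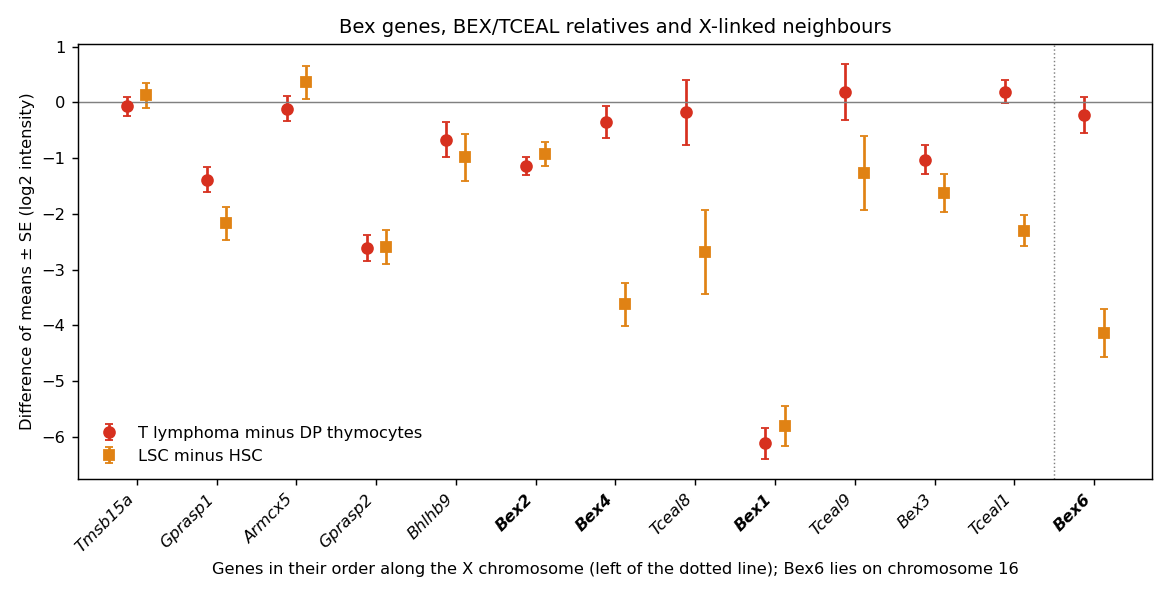
Difference of log2 means ± SE (vertical axis) in T lymphoma minus DP thymocytes (red circles) and LSC minus HSC (orange squares) for the tested Bex genes, relatives and neighbours in their order along the X chromosome, with Bex6 of chromosome 16 at the right and members in bold. Bex1 at -6.12 and -5.81 stands far below genes on either side of it, Tceal8 (-0.18 and -2.68) and Tceal9 (0.19 and -1.27).

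Genes of the pathways in which Bex proteins act were listed as well. The neurotrophin list held 11 genes: ligands, Ngfr, the Trk receptors, Sort1, Maged1 and Omp, which was listed as a partner of Bex proteins and not as a pathway gene. Of these, 8 had a probe set and 5 were tested, Omp included. Limma called 0 in each of the 4 comparisons (at an unadjusted p under 0.05, 1 lower and 1 higher in T lymphoma, the same in LSC, none in ZNF112 and 1 lower in the sorted lymphoma). These calls are for 1 probe set per gene, that of the highest mean. For Ntrk3, a receptor of neurotrophin 3, 2 further tested probe sets were called lower in T lymphoma (-1.82, limma adjusted p = 0.000491, and -0.97, adjusted p = 0.00653), beside -0.57 (adjusted p = 0.0565) for the chosen one, so its probe sets disagreed on the call. The ligands and Ngfr, the p75 receptor that Bex3 binds, were not among those tested. Maged1, a p75 adaptor, stood at 225 to 624 in the unsorted lymphomas and 119 in the sorted one, against 108 to 132 in DP thymocytes (1.31, adjusted p = 0.143), and at 51.5 and 90.1 in LSC, against 320 and 312 in HSC (-2.21, adjusted p = 0.0674). Of 6 genes of the Lmo2 complex, 5 were tested: 0 were called in T lymphoma (1 lower at an unadjusted p under 0.05) and 2 fell in LSC, Ldb1, the bridging protein (-2.49, adjusted p = 0.0458), and Lyl1, a basic helix-loop-helix factor (-3.37, adjusted p = 0.0396). Lmo2, the adaptor that human BEX2 binds, stood at -3.92 in LSC (adjusted p = 0.0512) and 1.79 in T lymphoma (adjusted p = 0.21), where it too was at the level of DP thymocytes in the sorted tumour. None of this complex was called in ZNF112 (0 at an unadjusted p under 0.05) or in the sorted lymphoma (1 lower and 1 higher). None of the 3 calmodulin genes had a probe set with a single symbol.

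The genes whose pattern over the 12 median-centred arrays was most like that of each member were found by Pearson's r among 12818 genes, as a description in which the points share the 5 groups. Here each gene was taken at its best-correlating probe set and not at that of the highest mean. A match may therefore not hold for other probe sets of the gene. For Bex1 they were Peli2, a ubiquitin ligase of innate signalling (r = 0.979), Il17re, an interleukin 17 receptor subunit (0.969), Adcy9, an adenylyl cyclase (0.964), S100a10, the partner of annexin A2 (0.964), and Ugt8a, an enzyme of galactolipid synthesis (0.963). Ugt8a stood at 22.8 to 25.5 in T lymphoma, against 893 to 985 in DP thymocytes, and at 12.2 to 52.9 in LSC, against 126 to 652 in HSC. Peli2 stood at 34.3 to 61.5 in T lymphoma, against 171 to 255 in DP thymocytes, and at 19.4 to 21.7 in LSC, against 120 to 145 in HSC. Without centring, 3 of the 5 genes were the same.

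Among the family, Bex2 was 9th in likeness to Bex1 (r = 0.953; 32nd and 0.838 without centring), Bex3 305th (0.725), Bex4 460th (0.669) and Bex6 697th (0.616). Seen from Bex2, S100a10 (0.974), Il17re (0.956) and Galm (0.954) came first and Bex1 4th. Without centring, Zfp820, P3h3 and Peli2 came first and Bex1 110th. Bex2 passed the filter only through 2 DP arrays, at 81.7 and 80.4, groups in which Bex1 was high too. The arrays correlated include those that chose the family, so no shared loss of Bex1 and Bex2 is read from these ranks. Bex4 was most like Afp (0.993), Kel, an erythroid blood group gene (0.991), and Icam4, an erythroid adhesion gene (0.990), with Bex6 28th (0.977). Bex6 was most like Crispld1 (0.995), Elane, the neutrophil elastase gene (0.994), and Sox6, a transcription factor of erythroid cells among others (0.991), with Tceal1 11th (0.989) and Bex4 31st. These were genes high in HSC alone: Elane stood at 70.7 to 107 in LSC, against 1569 to 5398 in HSC, and Kel at 15.9 to 26.4 in LSC, against 216 to 452 in HSC. A correlation across arrays of such a pattern rests mainly on the 2 HSC arrays.

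Markers of other blood cells moved with the LSC comparison of Bex4 and Bex6. The summed intensity of 8 granulocyte markers was 1457 to 12500 in LSC (4 to 8 of 8 above the filter level), against 38160 to 43500 in HSC (8 of 8). For 4 erythroid markers it was 166 to 1078 in LSC (0 to 2 above), against 3604 to 10620 in HSC (3 above), and for 5 megakaryocyte markers 257 to 2461 in LSC, against 5467 to 6688 in HSC. For 10 macrophage markers it was 3339 to 14280 in LSC, against 4593 to 30150 in HSC, whose arrays were far apart (C1qa 2615 in HSC 1 and 92.8 in HSC 2). For 10 DP thymocyte markers it was 6689 to 21410 in LSC, against 3726 to 5215 in HSC. For 8 HSC markers it was 2540 to 13430 in LSC (3 to 6 above), against 9924 to 13550 in HSC (8 of 8), and Hlf, a stem cell factor, stood at 41.2 and 27.3 in LSC, against 1618 and 2197 in HSC. Of 8 neural markers, the cell type in which Bex genes are best known, 0 to 2 passed the level in any array. The part of these cell types in the Bex values was not tested.

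By count, limma called lower in LSC 3 of 8 granulocyte, 3 of 4 erythroid, 2 of 5 megakaryocyte, 3 of 8 HSC and 1 of 10 stromal markers, and called higher 6 of 10 DP thymocyte markers, while 0 of 10 macrophage and 0 of 5 B cell markers were called (0 and 2 at an unadjusted p under 0.05). Over all tested probe sets, 4.67% were called lower and 3.81% higher in LSC minus HSC. Of the HSC markers called, Hlf passed the filter only through the 2 HSC arrays, and so was tested only because it was high there. In T lymphoma 4 of 10 DP thymocyte markers were lower and 1 higher, and 1 of 10 macrophage markers was higher. Over all tested probe sets, 4.7% were called lower and 2.76% higher in T lymphoma minus DP thymocytes. There limma called 0 of the stromal, granulocyte, HSC, B cell, erythroid and megakaryocyte markers (7, 1, 2, 0, 0 and 0 higher at an unadjusted p under 0.05). All 10 DP thymocyte markers were above the filter level in every lymphoma and DP array, with sums of 56500 to 77580 in T lymphoma and 122500 to 137400 in DP thymocytes. In ZNF112, 9 of the 10 were above it, with a sum of 55770.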

How the data were processed

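Total RNA had been extracted with Trizol, amplified and hybridised as biotin-labelled cRNA to Affymetrix mouse genome arrays, 1 per sample, per the labels' protocols. The deposited values are intensities per probe set on a linear scale, made with RMA (robust multi-array average), per the submitters' processing notes. Log2 was taken here. The table held 45101 probe sets, 64 of them controls. A platform annotation gave 1 symbol to 34945 probe sets, several to 932 and none to 9160, and probe sets with several or none were not named. Probe sets above 80.2, the median of all values, in at least 2 arrays were tested (27957). Limma 3.58.1 in R 4.3.3 (lmFit, eBayes, two-sided) fitted all 12 arrays with a mean per group, and calls needed a Benjamini-Hochberg adjusted p under 0.05 over all tested probe sets. Arrays hold no read depth, and their number limits the precision. The labels call the replicates biological, though several were pools of mice.

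The family members, the lists (relatives, X-linked neighbours, neurotrophin, Lmo2 complex, calmodulin and cell type markers) and the tests were chosen with earlier results of these data known. Named genes were the members and relatives with their values, the called genes of the other lists, and those most like each member in pattern. Upstream sequences came from RefSeq and were aligned with Biopython 1.88. The limma step was checked on simulated data. Alternatives covered the arrays fitted, genes for probe sets, the filter, centring, quantile normalization, an intensity trend, single arrays left out, the sorted tumour and a replicate block.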

Additional observations from a re-analysis of the deposited data

Results flagged for a closer look

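In T lymphoma, Bex3 stood at 625 in lymphoma 1 and at 943 to 960 in the other 3 tumours, the sorted one included, so the gap to the nearest tumour took 0.959 of the group's range on the log2 scale. The level for singling out such a gap is one that about 1 in 20 groups pass by chance, and 9 genes were looked at. Without this tumour the difference to DP thymocytes was -0.88 (limma adjusted p = 0.0993).

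The LSC minus HSC effect and the T lymphoma minus DP thymocytes effect differed in limma's test of the difference for 4 genes of the lists: Tceal1 (-2.50, adjusted p = 0.00421), Maged1 (-3.52, adjusted p = 0.0324), Lmo2 (-5.71, adjusted p = 0.033) and Ntrk3 (1.23, adjusted p = 0.0221). Lmo2 stood at 466 to 1131 in the unsorted lymphomas and 112 in the sorted one, against 118 to 121 in DP thymocytes. Maged1 stood at 225 to 624 in the unsorted lymphomas and 119 in the sorted one, against 108 to 132 in DP thymocytes. For Ntrk3 the value is from the probe set of the highest mean (-0.57 in T lymphoma, adjusted p = 0.0565, and 0.66 in LSC). The 2 other tested Ntrk3 probe sets were called in T lymphoma (-1.82 and -0.97, adjusted p = 0.000491 and 0.00653) and stood at 0.05 and 0.05 in LSC. Tceal1 passed the filter only through the 2 HSC arrays and was dim in T lymphoma and DP thymocytes, so it had little room for a fall on that side.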

How the results depend on the processing

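The direction of every member held in both comparisons that chose the family, under all alternatives in which the probe set was tested. These refits reuse the arrays that chose the family, so no support for a fall is read from a held sign. In T lymphoma minus DP thymocytes, Bex4 (-0.35, SE 0.29) and Bex6 (-0.22, SE 0.33) differed little beside their SE. Bex1 ranged over -6.24 to -6.02 (T lymphoma minus DP thymocytes) and -6.37 to -5.25 (LSC minus HSC), Bex2 over -1.26 to -1.07 and -1.03 to -0.81, Bex4 over -0.43 to -0.29 and -4.14 to -3.10, and Bex6 over -0.32 to -0.15 and -4.96 to -3.33. Under a stricter filter Bex2, Bex4 and Bex6 were not tested, nor was Bex2 after centring or quantile normalization. Differences near 0 changed sign: Bex6 in ZNF112 minus T lymphoma was 0.00608 after centring, 0.0919 against the sorted lymphoma alone and -0.0488 to 0.0462 with single lymphomas left out, and Bex1 in the sorted minus unsorted lymphomas was 0.107 after centring, 0.0488 after quantile normalization and -0.15 to 0.17 with single lymphomas left out. Bex3 in the sorted lymphoma was -0.00571 after quantile normalization, Tceal8 in T lymphoma 0.288 with the 3 unsorted tumours only, and Tceal9 -0.356 with the sorted tumour only. The causes were not tested.

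Counts of calls moved more. The 2084 calls in T lymphoma minus DP thymocytes became 4533 with only the arrays of the T cell side, 838 for genes, 3809 for the 3 unsorted tumours, 641 for the sorted one and 840 to 1584 with single arrays left out. The 2372 calls in LSC minus HSC became 0 with only the 4 stem cell arrays (limma; 2999 at an unadjusted p under 0.05), 1313 for genes, 1438 under the stricter filter and 1355 to 5592 with single arrays left out. The 207 calls for ZNF112 became 845, 374 without a filter, 101 under the stricter one and 88 to 395, and the 105 for the sorted lymphoma 944 and 58 to 440. Of the 5 genes most like Bex1, 3 were shared without centring.

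The replicate numbers did not pair the samples (correlations of same-numbered deviations 0.04, -0.09 and -0.01 for T lymphoma and DP thymocytes, 0.08 for LSC and HSC). With the replicate block, 3029 and 1796 probe sets were called in T lymphoma minus DP thymocytes and LSC minus HSC, and Tceal8 in T lymphoma was 0.288.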
